A study of Homo sapiens with 4 samples.

Results

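SP1, SP2, SP3 and SP4 are the members of the SP (specificity protein) family of transcription factors described here, and they were compared in LNCaP cells between R1881 + vehicle and R1881 + CPI-455. The 4 genes were taken by name from gene-level fragment counts that list 60675 genes, and all 4 were among the 17600 genes with enough counts to be tested. LNCaP is an established human prostate cancer cell line that responds to androgen. Both groups received 1 nM R1881, a synthetic androgen, for 72 h in hormone-depleted medium. The vehicle group received DMSO, and the CPI-455 group received 50 µM CPI-455, an inhibitor of the KDM5 histone demethylases, which remove methyl groups from lysine 4 of histone H3. Each group has 2 libraries, described by the study as biological replicates, all from this single cell line. No library from cells without androgen was compared, so the comparison is of androgen with and without the inhibitor. It was asked whether SP2, SP3 and SP4 followed SP1.

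SP proteins bind DNA through zinc fingers at the end of the protein, and most of them recognise GC-rich boxes in the promoters of housekeeping and growth-related genes. SP1 is the founding member and an activator found in most cells. SP3 binds the same boxes and can activate or repress, SP4 is a further activator best known from neurons, and SP2 is the most divergent of these members and is found at promoters with CCAAT boxes.

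The vehicle libraries held 19623553 and 20690819 counted fragments, and the CPI-455 libraries held 9522920 and 5401588. A single fragment therefore stood for 0.0483 to 0.051 CPM (counts scaled to equal library size, as edgeR gives them) in the vehicle group and for 0.105 to 0.185 CPM in the CPI-455 group, and CPI-455 replicate 2 was the shallowest library. The share of fragments on MALAT1, a nuclear noncoding RNA, was 0.0884 to 0.114% with vehicle and 4.95 to 6.49% with CPI-455, and all 13 mitochondrial mRNAs were called lower, at a median of -4.26 on the log2 scale. Of 10 LNCaP markers, all of them counted in every library, 7 were called lower with CPI-455 (70.0%, beside 21.3% of all genes tested). Among these were FOXA1 (log2 fold change -2.69), FOLH1 (-2.58) and KLK3, and the median of the 10 was -1.83. TMPRSS2 (-0.66) and KRT18 (-0.43) were lower but not called. KLK2 went the other way, from 84.2 and 64.4 to 108 and 111 CPM (0.56), and was not called. Of 9 markers of basal, stromal and immune cells, 8 had too few counts to test, KRT5 was at 0 in every library, and they summed to 4.67 to 5.59 CPM in the vehicle libraries and to 11.9 to 12.5 CPM in the CPI-455 libraries. The remaining one, the stromal collagen gene COL1A1, was called higher with 105, 88, 90 and 39 fragments (log2 fold change 1.00). These differences in depth and RNA makeup run along the same line as the treatment. Their part in the SP results was not tested, apart from the thinned libraries and the normalization without mitochondrial genes and MALAT1 given below.

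The promoters are shown because GC boxes are the sites the family itself binds. Each is a RefSeq promoter of the GRCh38.p14 assembly, 300 bases on the strand of the gene. The table holds 2 promoters for SP1 and 3 for SP3, and the one nearest to the start of the counted gene was taken. The windows are chr12:53379926-53380225 for SP1 (plus strand), chr17:47895986-47896285 for SP2 (plus), chr2:173965653-173965952 for SP3 (minus) and chr7:21427833-21428132 for SP4 (plus). The RefSeq start coincides with the counted gene's start for SP1 and SP3 and lies 86 and 49 bases inside it for SP2 and SP4. Capitals mark the letters GGGCGG on either strand, the core of a GC box.
SP1: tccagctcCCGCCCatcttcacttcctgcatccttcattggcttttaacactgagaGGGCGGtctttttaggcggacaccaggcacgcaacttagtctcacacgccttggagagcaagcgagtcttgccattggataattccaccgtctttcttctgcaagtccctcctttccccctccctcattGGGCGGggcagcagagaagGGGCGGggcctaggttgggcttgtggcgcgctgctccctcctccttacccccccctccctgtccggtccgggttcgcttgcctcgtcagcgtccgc
SP2: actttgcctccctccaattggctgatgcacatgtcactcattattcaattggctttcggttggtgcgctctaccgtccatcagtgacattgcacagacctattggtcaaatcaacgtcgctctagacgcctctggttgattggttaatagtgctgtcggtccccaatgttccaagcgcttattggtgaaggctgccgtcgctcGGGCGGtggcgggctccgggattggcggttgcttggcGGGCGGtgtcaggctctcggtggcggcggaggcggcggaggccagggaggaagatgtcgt
SP3: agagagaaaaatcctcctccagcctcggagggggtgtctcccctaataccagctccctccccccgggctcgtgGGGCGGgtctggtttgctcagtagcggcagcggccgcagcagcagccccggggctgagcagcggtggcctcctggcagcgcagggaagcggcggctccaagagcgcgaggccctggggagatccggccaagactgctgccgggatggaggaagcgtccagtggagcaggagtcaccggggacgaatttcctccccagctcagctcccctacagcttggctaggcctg
SP4: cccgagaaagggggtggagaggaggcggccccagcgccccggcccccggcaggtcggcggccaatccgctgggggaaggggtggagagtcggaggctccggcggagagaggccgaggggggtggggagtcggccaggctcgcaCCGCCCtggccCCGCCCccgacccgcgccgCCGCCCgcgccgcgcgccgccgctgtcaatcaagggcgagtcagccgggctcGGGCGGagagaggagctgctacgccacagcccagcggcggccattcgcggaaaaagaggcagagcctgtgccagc
The letters GGGCGG occurred 4 times in the SP1 window, 2 times in SP2, 1 time in SP3 and 4 times in SP4. The letters CCAAT, searched on both strands, occurred 3, 8, 0 and 1 times. The counts depend on the promoter taken: the other SP1 promoter, 468 bases further on, held GGGCGG 10 times and CCAAT 0 times, and the other SP3 promoters, 329 and 1822 bases further on, held GGGCGG 2 times and CCAAT 1 time each. In the SP1 window the GC boxes started at positions -242, -194, -65 and -46 counted from the transcription start, and in SP4 at -107, -96, -77 and -25. The GC boxes and CCAAT matches overlapped at 1 place, near position -65 of SP1. The GC content of the windows was 60.7% in SP1, 58.0% in SP2, 68.0% in SP3 and 76.7% in SP4. Among 18879 genes of the count files with a promoter in the same table, 54.6% held GGGCGG, 20.4% held it 3 or more times and 36.3% held CCAAT. These are matches of letters and do not show binding in these cells.

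All 4 SP genes were lower with CPI-455, and SP1, SP2 and SP4 passed both thresholds, an FDR under 0.05 and a fold change of 2 or more in edgeR's quasi-likelihood test. Of all genes tested, 21.3% were called lower and 21.0% higher by the same thresholds, so a lower call was common. At an FDR below 0.05 whatever the fold, 32.8% were lower, and by this looser call all 4 members were. In CPM, both vehicle libraries lay above both CPI-455 libraries for each of the 4 members, as they did for 42.8% of the genes tested. In whole-culture RNA, fewer expressing cells and less RNA per cell cannot be told apart.

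SP1 (ENSG00000185591, chr12:53380176-53416446, plus strand) was the most abundant member. It had 6437 and 6387 fragments in the vehicle libraries and 702 and 475 in the CPI-455 libraries, which is 305 and 292 CPM against 78.9 and 94.2 CPM after normalization. The groups were far apart, and the CPI-455 libraries lay close to each other. The mean fell from 299 ± 8.70 to 86.6 ± 10.8 CPM (SD, n = 2), 28.9% of the vehicle level. Its log2 fold change, always given as CPI-455 over vehicle, was -1.79 with a standard error of 0.13 and a 95% interval of -2.08 to -1.51 (edgeR FDR 3.60e-06). That is a 3.46-fold lower level, and 10.1% of the genes tested had a log2 fold change at least as low.

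SP3 (ENSG00000172845, chr2:173906459-173965702, minus strand) was second in abundance and had the smallest change of the members. It had 3139, 3207, 635 and 449 fragments, which is 149 and 147 CPM with vehicle and 71.4 and 89.0 CPM with CPI-455. The mean was 148 ± 1.25 CPM with vehicle and 80.2 ± 12.5 CPM with CPI-455 (SD, n = 2), or 54.0% of vehicle. Its log2 fold change was -0.89 (SE 0.13, 95% interval -1.19 to -0.59, edgeR FDR 3.49e-04), a 1.85-fold lower level. It passed the FDR threshold and missed the fold threshold. The value depended on the scaling and on 1 library: it was -1.08 with library totals only and -1.04 without the count filter, both past 2-fold, and -1.09 without CPI-455 replicate 2 and -0.75 without CPI-455 replicate 1. After correction of each library for a smooth dependence of the counts on the length and GC content of the exons, it was -0.36 (edgeR FDR 0.0167).

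SP2 (ENSG00000167182, chr17:47896150-47928957, plus strand) was called lower, but its CPI-455 libraries stood apart. It had 603, 662, 107 and 34 fragments, which is 28.5 and 30.3 CPM with vehicle and 12.0 and 6.74 CPM with CPI-455. The mean fell from 29.4 ± 1.25 to 9.39 ± 3.74 CPM (SD, n = 2). Its log2 fold change was -1.60 (SE 0.25, 95% interval -2.17 to -1.02, edgeR FDR 4.81e-04), a 3.02-fold lower level. Without CPI-455 replicate 1 it was -2.14 and without CPI-455 replicate 2 it was -1.33.

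SP4 (ENSG00000105866, chr7:21428034-21514822, plus strand) was the least abundant member. It had 443, 383, 65 and 37 fragments, which is 21.0 and 17.5 CPM with vehicle and 7.31 and 7.34 CPM with CPI-455. Both CPI-455 libraries gave nearly one value, from few fragments. The mean fell from 19.3 ± 2.43 to 7.32 ± 0.0192 CPM (SD, n = 2), and the log2 fold change was -1.39 (SE 0.23, 95% interval -1.92 to -0.87, edgeR FDR 6.89e-04), a 2.63-fold lower level. After the correction for exon length and GC it was -0.86, under 2-fold.

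**Figure D1:**
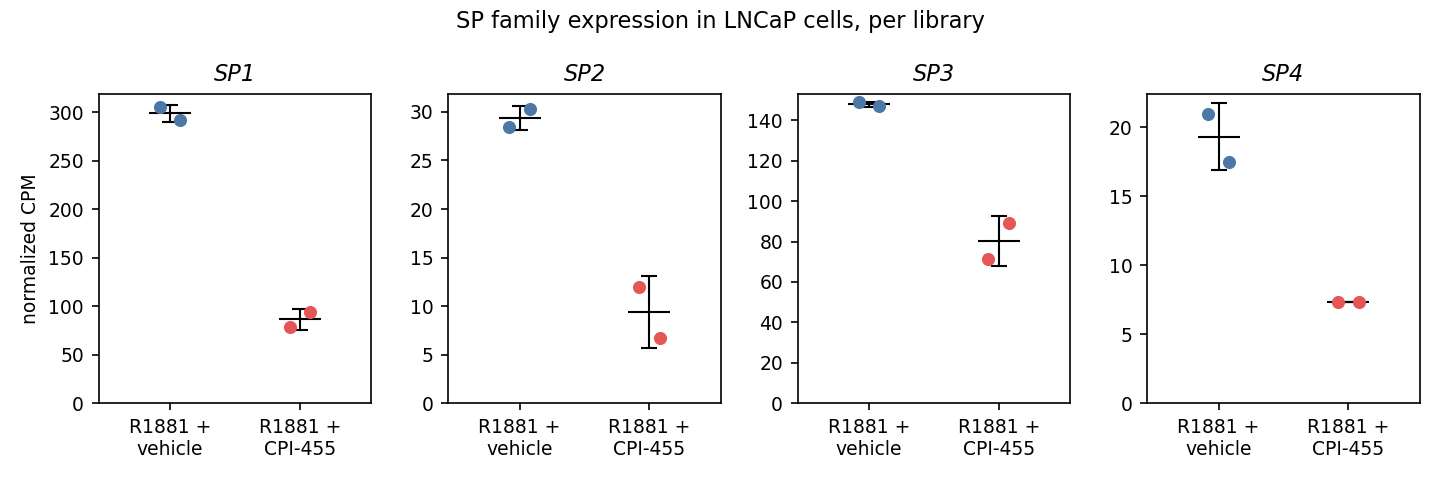
Normalized CPM of SP1, SP2, SP3 and SP4 in each library, with a panel and an axis from 0 for each gene. Points are libraries, blue for R1881 + vehicle and red for R1881 + CPI-455, and bars are mean ± SD (n = 2). Every vehicle point lies above every CPI-455 point, from 292 against 94.2 CPM for SP1 to 147 against 89.0 CPM for SP3.

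Under 15 alternative settings per gene, the log2 fold change of SP1 stayed between -1.98 and -1.33 and that of SP2 between -2.14 and -1.33, and both were called lower each time. When all libraries were thinned to the total of the smallest one, the values were -1.67 for SP1, -1.64 for SP2, -0.80 for SP3 and -1.53 for SP4. Leaving mitochondrial genes and MALAT1 out of the normalization gave -1.79, -1.60, -0.89 and -1.39, the values given above.

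**Figure D2:**
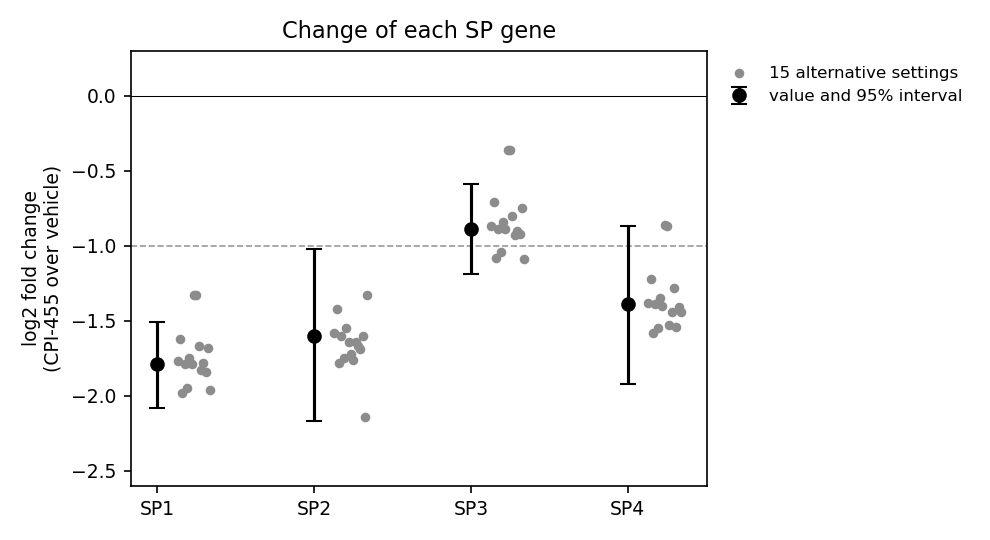
Log2 fold change (CPI-455 over vehicle) of the SP genes, with the 95% interval (black) and the values under the 15 alternative settings (grey). The dashed line marks a 2-fold lower level. Of the 15 alternative SP3 values, 12 lie above this line, and their full range is -1.09 to -0.36. The SP1 and SP2 values lie under the line.

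Whether a paralog followed SP1 was tested on its ratio to SP1 within a library, which does not depend on the scaling between libraries. SP3 did not follow SP1 fully. For each 100 SP1 fragments there were 48.8 and 50.2 SP3 fragments in the vehicle libraries and 90.5 and 94.5 in the CPI-455 libraries. The ratio rose by 0.90 on the log2 scale (SE 0.15, 95% interval 0.54 to 1.26, limma adjusted p = 9.71e-04), that is 1.87-fold with an interval of 1.46 to 2.39. It passed the threshold under all 9 alternatives run, at 0.86 to 0.97. A rise against SP1 is not particular to SP3, since 73.8% of the other genes tested also had a higher ratio to SP1 with CPI-455 by the same test.

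SP4 had 6.88 and 6.00 fragments for each 100 SP1 fragments with vehicle and 9.26 and 7.79 with CPI-455. Both CPI-455 ratios were above both vehicle ratios, but the difference of 0.42 on the log2 scale (SE 0.26, 95% interval -0.20 to 1.03) did not pass the test (limma adjusted p = 0.186). The interval leaves room for a ratio that did not move and for one that rose as much as that of SP3. Without CPI-455 replicate 2 the difference was 0.54 and passed (limma adjusted p = 0.0124), and with that library the adjusted p ranged up to 0.665 over the alternatives.

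For SP2 the ratio split the CPI-455 libraries. There were 9.37 and 10.4 SP2 fragments for each 100 SP1 fragments with vehicle, 15.2 in CPI-455 replicate 1 and 7.16 in CPI-455 replicate 2, 1 above and 1 under both vehicle values. The difference was 0.10 on the log2 scale (SE 0.36, 95% interval -0.74 to 0.94, limma adjusted p = 0.821). Its sign rested on 1 library: without CPI-455 replicate 2 it was 0.63 (limma adjusted p = 0.00167), and without CPI-455 replicate 1 it was -0.44 (limma adjusted p = 0.0146). The correction for exon length and GC gave -0.49 (limma adjusted p = 0.177). These data do not settle whether SP2 followed SP1.

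**Figure D3:**
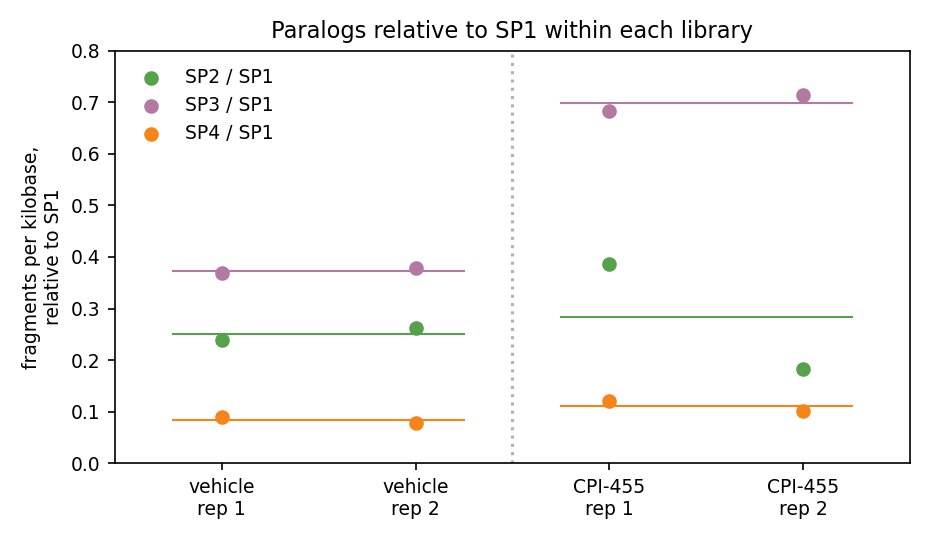
Fragments per kilobase of exon of SP2, SP3 and SP4 relative to SP1 within each library. Points are libraries and horizontal lines are means of the 2 libraries of a group. SP3 stood at 0.368 and 0.379 of SP1 with vehicle and at 0.683 and 0.714 with CPI-455, while the SP2 points with CPI-455 lie on either side of the vehicle points.

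The remaining pairs of paralogs were compared in the same way after the values above were known. The SP3/SP2 ratio differed by 0.81 (95% interval -0.18 to 1.79, limma adjusted p = 0.149), SP4/SP2 by 0.32 (-0.65 to 1.29, adjusted p = 0.579) and SP4/SP3 by -0.49 (-1.14 to 0.17, adjusted p = 0.172), all on the log2 scale. None of these passed, and the intervals reach changes of over 2-fold.

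Levels of different genes were compared per kilobase of exon. The exons of SP1 cover 8083 bases, those of SP2 3184, of SP3 10704 and of SP4 6234, and no member shares exon bases with another gene. SP1 stood at 36.9 ± 1.08 CPM per kilobase with vehicle and 10.7 ± 1.33 with CPI-455 (SD, n = 2). SP3 stood at 13.8 ± 0.117 and 7.49 ± 1.16, SP2 at 9.24 ± 0.392 and 2.95 ± 1.17, and SP4 at 3.09 ± 0.39 and 1.17 ± 0.00307. The order SP1, SP3, SP2, SP4 held in each of the 4 libraries, and neighbours in this order did not overlap within a group. Among the genes tested, the level of SP1 per kilobase over all libraries was at percentile 88.7, SP3 at 72.7, SP2 at 58.5 and SP4 at 33.5.

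SP1 made up a smaller part of the family's pool with CPI-455, and SP3 a larger part. The summed level of the 4 genes was 63.9 and 62.2 CPM per kilobase with vehicle and 21.4 and 23.3 with CPI-455, or 35.4% of vehicle on average. SP1 made up 59.0 and 58.1% of it with vehicle and 45.7 and 50.1% with CPI-455. SP3 made up 21.7 and 22.0% in the vehicle libraries and 31.2 and 35.8% in the CPI-455 libraries, and neither gene's groups overlapped. SP2 took 14.0 and 15.3% of the vehicle pool and 17.7 and 9.10% of the CPI-455 pool, and SP4 took between 4.52 and 5.48% in every library, so these shares overlapped between the groups. On raw counts, without division by exon length, the mean SP2 share was 5.95% with vehicle and 5.25% with CPI-455, and that of SP3 was 29.8 and 43.6%. The shares were not tested.

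**Figure D4:**
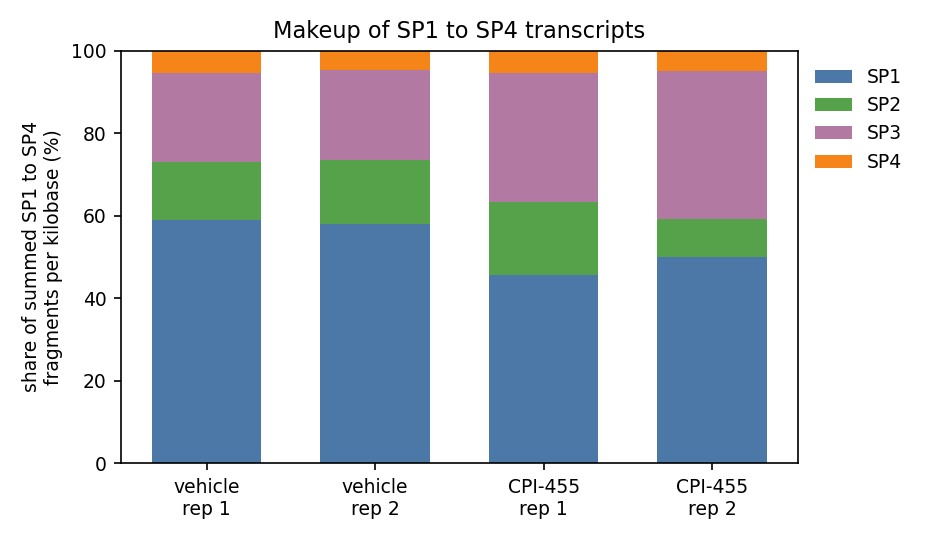
Share of each SP gene in the summed fragments per kilobase of SP1 to SP4, for each library (stacked bars, in %). The SP3 part is 21.7 to 22.0% with vehicle and 31.2 to 35.8% with CPI-455, and the SP1 part is smaller in both CPI-455 libraries.

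The other SP genes, SP5 to SP9, are developmental factors and were scarce. SP8, known from limb and brain development, had 116, 104, 6 and 6 fragments and was called lower (log2 fold change -2.53, SE 0.49, edgeR FDR 0.00163). SP6 had 45, 50, 15 and 11 fragments (log2 fold change -0.21, edgeR FDR 0.732). SP9 had 88, 68, 47 and 41 fragments (0.85, edgeR FDR 0.0743), but shares 1628 of its 2554 exon bases with another annotated gene. SP5 had 5, 6, 3 and 0 fragments and SP7 had 7, 1, 0 and 3, and neither was tested.

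The KLF genes encode the nearest relatives of the SP factors, with like zinc fingers. Of 17 KLF genes 14 were tested, 3 were called lower and 2 higher. That is 21.4 and 14.3%, beside 21.3 and 21.0% of all genes tested and 24.4 and 15.6% of the protein-coding ones. Both shares were close to those of the protein-coding genes. The median change was -0.37 on the log2 scale, against -0.04 over all genes tested and -0.21 over the protein-coding ones. KLF12, a repressor, fell from 2547 and 2699 fragments to 242 and 142 (log2 fold change -2.14, edgeR FDR 1.83e-06). KLF13 (-1.68) and KLF5 (-1.33), an epithelial factor, were also called lower. KLF6, a stress- and growth-responsive member, went the other way, with 1531 and 1410 fragments with vehicle and 3334 and 2085 with CPI-455 (log2 fold change 2.52, edgeR FDR 7.52e-07). The other gene called higher, KLF14, had only 2, 7, 7 and 9 fragments.

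Of 28 genes for cofactors and modifiers of SP proteins, all tested, 8 were called lower and 1 higher. That is 28.6 and 3.57%, beside 24.4 and 15.6% of the protein-coding genes tested, so the share called lower was close to the background. Their median change was -0.41 on the log2 scale, and it moved to 0.04 after the correction for exon length and GC. MED1, a Mediator subunit, had 3597, 3701, 285 and 207 fragments (-2.23). BTRC, a subunit of an E3 ubiquitin ligase, stood at -2.14 and SENP1, a SUMO protease, at -2.13. The further genes called lower were the NF-Y subunit NFYA (-2.00), the kinase GSK3B (-1.88), the zinc finger factor YY1 (-1.77) and the acetyltransferases EP300 (-1.72) and CREBBP (-1.57). OGT, which attaches O-GlcNAc to proteins such as SP1, was the gene called higher, with 9191, 8227, 8977 and 4831 fragments (log2 fold change 1.28), and its counterpart OGA stood at 0.56.

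Of 21 genes known from textbooks as SP1 targets, all tested, 11 were called lower and 1 higher. That is 52.4 and 4.76%, beside 21.3 and 21.0% of all genes tested and 24.4 and 15.6% of the protein-coding ones. The median change was -1.14 on the log2 scale beside -0.04 over all genes tested and -0.21 over the 13813 protein-coding ones. SLC2A1, a glucose transporter, fell from 3442 and 3745 fragments to 170 and 104 (-3.08). MAOA, a monoamine oxidase, had 613, 585, 39 and 37 fragments (-2.31, edgeR FDR 5.81e-05). The cell cycle genes CDKN1A (-1.85), TYMS (-1.62), CCND1 (-1.59) and E2F1 (-1.14) were called lower too. VEGFA (0.46) and FASN (0.21) were not called. KLK3, the androgen-responsive gene for prostate-specific antigen, had 8530, 7805, 954 and 684 fragments (-1.65). The list was written by hand from general knowledge, with earlier results of these data known. Its share of lower calls is therefore no independent test, and the targets are not shown to be bound by SP1 here.

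**Figure D5:**
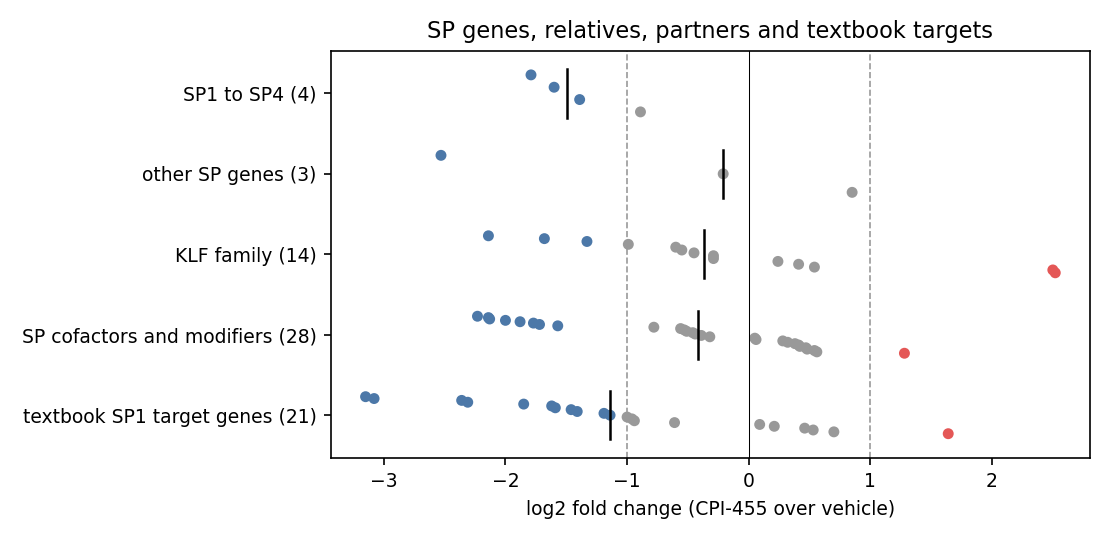
Log2 fold change (CPI-455 over vehicle) of the tested genes in each list, with the number tested in parentheses. Blue points were called lower, red points higher and grey points neither, black lines are list medians and dashed lines mark 2-fold. SP1 to SP4 have a median of -1.49, textbook SP1 targets -1.14, KLF genes -0.37 and cofactors and modifiers -0.41.

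Genes were also grouped by the number of GC boxes (GGGCGG) in their promoter window, over the 12062 tested genes matched to the promoter table. With no GC box 23.9% were called lower, with 1 it was 21.6%, with 2 it was 22.2% and with 3 or more 25.0%. The medians of the log2 fold change were -0.14, -0.13, -0.18 and -0.23. The share called higher was 18.7% with none, 16.0% with 1, 16.5% with 2 and 14.7% with 3 or more. The median GC content of the exons also differed, from 47.0% with no GC box to 50.8% with 3 or more. After the correction for exon length and GC, the medians of the log2 fold change were 0.04, 0.02, -0.04 and -0.09. The part of the GC boxes themselves was not tested.

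Among the nearest tested genes around the SP loci, calls went in both directions. Some of these lay far off: CDCA7 was 537 kilobases from SP3, and SP8 and ITGB8 were 641 and 1010 kilobases from SP4. Next to SP1 lie AAAS and MYG1 on one side and AMHR2 and PRR13 on the other. AAAS, for a nuclear pore protein, was called higher (1.13, but 0.94 with library totals only and 0.96 without CPI-455 replicate 1), and MYG1 (0.66), PRR13 (0.52) and AMHR2 (-0.39) were not called. Next to SP2, PRR15L (-0.84), SP6 and the noncoding SP2-DT (-0.03), which ends 0.338 kilobases from SP2, were not called. SP2-AS1, an antisense gene overlapping SP2, had 39, 52, 15 and 10 fragments (-0.22). Strand was not used in the counting, so fragments of the pair could be told apart only by position. The exons of the pair share no bases. Next to SP3, CDCA7, a MYC target, was called higher (1.26), OLA1 (0.40) was not, and a pair of unnamed genes with at most 9 fragments in a library were called higher, but not by DESeq2. Next to SP4 lie SP8, ITGB8 with 32, 34, 3 and 0 fragments, both called lower, DNAH11, an axonemal dynein, called higher (1.51), and CDCA7L (-0.19), not called. The call of ITGB8 was lost with DESeq2 (adjusted p = 0.121) and without vehicle replicate 1 or 2 (edgeR FDR 0.251 and 0.273), and that of DNAH11 likewise (DESeq2 adjusted p = 0.065, edgeR FDR 0.108 and 0.159).

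The genes whose pattern over the 4 libraries was most like that of each member were found among 6969 well-expressed genes. The measure was the Euclidean distance of centred log2 CPM. It picks genes by these same values, so a shared split or size of change follows from the choice. Among the nearest to SP1 were TRAM2, at a distance of 0.0471, DEGS1 and NR1D2. SP4 was the member nearest to SP1, at 0.474, but 612 of the candidate genes were nearer. SP2 lay at 0.775 from SP1 and SP3 at 0.903. The nearest to SP2, CCDC97, DLG5 and URB2, showed the same split between the CPI-455 libraries. CCDC97 had 22.9 CPM in CPI-455 replicate 1 and 13.3 CPM in replicate 2. The nearest to SP3 were MAP3K4 and UBQLN1, which like SP3 were under 2-fold lower (-0.91 and -0.92), and the nearest to SP4 were THAP12 and UCK1.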

How the data were processed

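LNCaP cells were sequenced as 2 libraries with R1881 + vehicle and 2 with R1881 + CPI-455, grouped by the sample titles. The authors trimmed the reads with TrimGalore, used STAR for alignment to GRCh38, and took fragment counts over the exons of Ensembl release 83 genes from featureCounts v1.5.0-p1, without strand and leaving out fragments with several alignments or genes. The deposited values are raw counts per gene, without normalization, and depth sets their precision: 1 count is 0.0483 to 0.185 CPM.

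Counts were tested with edgeR 4.0.16 in R 4.3.3 (TMM normalization, filterByExpr with a minimum of 10 counts, glmQLFit and glmQLFTest, no covariates), and genes at an FDR (Benjamini-Hochberg over the 17600 genes tested) below 0.05 and at least 2-fold were called. Ratios to SP1 were tested with limma 3.58.1 (eBayes with trend) on log2 of count plus 0.5 within each library, over all genes. An exact permutation test of 2 against 2 libraries cannot go below 0.333 and was not used. On simulated counts with 200 genes changed by 1.5 on the log2 scale, the edgeR step recovered 96.5% with 4 false calls over 17120 genes, and the limma step recovered 95% with 12.

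The SP genes and the gene lists were chosen with earlier results of these data known. Genes are named if they are SP genes or KLK3, the nearest 2 tested genes on each side, the 3 largest calls in each direction of a list (mean log2 CPM of at least 3) or the 5 nearest in pattern, of which some are given. Some genes that this rule names are not reported here. Other list genes were named after their values were seen. Gene symbols were matched for 56558 genes. Figures were drawn with matplotlib 3.10.9.

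Alternatives were RLE, upper-quartile and library-total scaling, TMM without mitochondrial genes and MALAT1, 2 other filters, DESeq2 1.42.0, a replicate block, correction for a trend on the length and GC of exons (mgcv 1.9.3), thinned libraries and each library left out. The SP genes as reference for other ratios were added after seeing the data. Splicing and the experiments without sequencing were not analysed here.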

Additional observations from a re-analysis of the deposited data

How the results depend on the processing

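SP1 and SP2 were called lower, and the SP3/SP1 ratio was higher and past the threshold, under every alternative run. SP3 moved past 2-fold with library totals only (-1.08) and without the count filter (-1.04), and leaving out a library gave -1.09 to -0.75. SP4 missed 2-fold with the counts corrected for exon length and GC (-0.86, and -0.87 with the replicate block). The SP2/SP1 ratio turned to -0.49 with that correction and ran from -0.44 to 0.63 when a library was left out. The SP4/SP1 ratio ran from 0.29 to 0.54 in the same way. With a library left out, the fits rest on 1 library in a group, which is assumed to vary like the others. The cause of these changes was not tested.

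The median log2 fold change of all genes moved by 0.17 with upper-quartile scaling, -0.19 with library totals and -0.15 without the filter, and the 3756 genes called lower and 3698 called higher became 2669 to 4563 and 2493 to 4298. Same-numbered libraries were not shown to be paired: with 2 pairs, their deviations correlated at r = 0.0668 over 11207 genes. With the replicate block the values were -1.79 (SP1), -1.64 (SP2), -0.89 (SP3) and -1.40 (SP4), and the ratios to SP1 were 0.10, 0.90 and 0.42. The counts were 3745 lower and 3422 higher, and the block changed no call of a member.

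Of 541 values for 37 other named genes, 505 kept their direction and call, 22 lost the call (all AAAS, DNAH11, ITGB8 or the unnamed pair next to SP3), 2 gained it and 12 changed sign, none of these 12 from a called value. These were AMHR2 (0.10) and SP2-AS1 (0.19) with thinned libraries, and CDCA7L with that correction (0.10, and 0.01 with the block) and with a library left out (-0.81 to 0.14). SP2-DT, from few fragments, stood at 0.15 with upper-quartile scaling, 0.01 with 10 counts in every library, 0.21 and 0.18 with that correction, without and with the block, 0.56 with thinned libraries and -0.62 to 0.44 with a library left out. On raw counts, without division by exon length, the mean shares of SP1 to SP4 were 60.3, 5.95, 29.8 and 3.89% in the vehicle group, and 47.1, 5.25, 43.6 and 4.01% in the CPI-455 group. The medians ran from -0.71 to -0.11 for KLF genes, -0.60 to 0.04 for cofactors and modifiers and -1.33 to -0.96 for textbook SP1 targets. The KLF genes called higher were 2 or 1, the cofactors and the targets called higher 1 or 2, the other SP genes called in either direction 0 or 1 and the other cell type markers called higher 0 to 2. Depth limits SP4 and SP2 most, with 34 to 107 fragments in the CPI-455 libraries.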
